A study of Mus musculus with 441 samples.

Results

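The cells described here are 84 single mouse embryonic stem cells (mESCs) of a Dgcr8 knockout line, captured on 1 microfluidic plate after growth in serum+LIF. They are the columns that carry the knockout's name among 361 single mESCs, and the question is which genes and programmes varied between cells of that one plate. The other cells came from wild-type v6.5 plates grown in serum+LIF (90 and 93 cells) or in 2i+LIF (94 cells), where 2i stands for blocking the kinases MEK and GSK3, and the series holds 441 samples in all, with bulk RNA, neural precursor cells and ChIP-seq. All 3 cultures received LIF. The labels do not say how the knockout was made, whether it is 1 clone, or whether its parent line was v6.5, so genotype, line and plate cannot be told apart.

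Dgcr8 is the RNA-binding partner of Drosha in the complex that cuts most primary microRNA transcripts, and stem cells without it lack nearly all canonical microRNAs. In mESCs the most abundant canonical microRNAs include members of the miR-290 cluster. Several of them share a seed with members of the miR-302 cluster, while miR-290a-3p and miR-291b-3p differ in its last base. MicroRNAs with the shared seed are known to repress the cell cycle inhibitor Cdkn1a and the Nodal inhibitors Lefty1 and Lefty2. Loss of Dgcr8 is known for slower proliferation with cells gathering in G1, and for poor silencing of pluripotency genes on differentiation.

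The mature microRNAs below are shown because the seed they share defines a group of known targets described further on. They come from RefSeq on GRCm38.p6, 5′ to 3′, and the capitals mark the seed, bases 2 to 8.

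miR-291a-3p: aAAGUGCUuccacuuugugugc
miR-294-3p: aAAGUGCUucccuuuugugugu
miR-295-3p: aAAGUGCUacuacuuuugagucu
miR-302b-3p: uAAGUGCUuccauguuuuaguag
miR-302d-3p: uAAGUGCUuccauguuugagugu

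Values are TPM, a transcript's share of its library corrected for length, so that levels of different genes can be compared. The number of reads is not kept by this unit, and the depth of each cell is unknown. A gene was called detected in a cell at TPM 1 or more. Knockout cells held between 6983 and 10927 detected genes with a median of 9318, while the medians were 7780 and 7648 on the serum plates and 9974 in 2i. No 2 cell columns held identical values. No cell was left out and no doublet caller was run.

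Dgcr8 itself was read in 79 of 84 knockout cells at TPM 1 or more, with a lowest value of 0, a median of 9.89 and a highest of 72.6 TPM. The medians were 61.6 and 21.5 TPM on the serum plates and 30.95 in 2i, and the ranges of all 4 plates overlapped. The bulk knockout libraries held 4.03 and 2.20 TPM against 10.6 and 10.3 in the bulk serum libraries. A value per gene does not show whether the deleted part of the gene was read, so these levels do not check the label. The same row is also listed under the name Mir1306, a microRNA gene lying in Dgcr8.

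The pluripotency markers were present across the plate. Pou5f1, which encodes the transcription factor Oct4, ran from 20.2 through a median of 137 to 419 TPM, and Nanog from 107 through 313 to 1142 TPM. Sox2, Pou5f1, Nanog and Zfp42 were above TPM 1 in all 84 cells. Esrrb was listed at 0 in 1 cell. The summed level of these 5 markers lay between 484 and 1877 TPM. Among markers of other cell types, 6 of 7 for primitive endoderm, 6 of 7 for fibroblasts, 4 of 5 for mesoderm, 3 of 5 for trophoblast, 3 of 5 for a two-cell-like state and 2 of 5 for neural precursors were listed at 0 in every knockout cell. The summed level had a median of 8.31 and a highest value of 115 TPM for trophoblast, 0.858 and 43.6 TPM for neural precursors, and 0 and 39158 TPM for the two-cell-like markers. It reached at most 16.2 TPM for primitive endoderm, 27.8 for fibroblasts and 27.2 for mesoderm. No cell carried 3 or more markers of any such type at TPM 10.

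Spread between cells was measured as the SD over the 84 cells of log2(TPM + 1). Because this SD depends on level, a running median of the SD over genes of like level on the same plate was subtracted, and the remainder is called the excess SD. Genes were named from the 6157 that averaged TPM 10 or more and were detected in at least 20% of knockout cells. These values describe 1 plate, so the ranking carries no test.

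Among the 20 genes with the highest excess SD were replication histones, Lefty1, the germline and early-embryo gene Dppa3 and the stress-response regulator Nupr1. Lefty1, a secreted inhibitor of Nodal signalling, ranked sixth of 6157 genes with an excess SD of 1.76. It was listed at 0 in 9 knockout cells, had a median of 99.0 TPM and reached 1455 TPM. On the serum plates its median was 0 and its highest values were 38 and 10.1 TPM, so the upper part of the knockout distribution lay beyond every serum cell while its lowest cells overlapped them. Dppa3 ran from 0 in 12 cells through a median of 110 to 952 TPM with an excess SD of 1.66, and it was also widely spread on the serum plates, at 1.45 and 1.41. Nupr1 ran from 0 in 14 cells through 77.5 to 821 TPM with an excess SD of 1.48. With a pseudocount of 10 the excess SD was 1.18 for Lefty1, 0.95 for Dppa3 and 0.73 for Nupr1. In 2i cells Nupr1 was never listed at 0, its lowest cell held 16.7 TPM, and its median was 331 TPM.

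The first 20 genes by excess SD included 7 replication histones, which are transcribed in S phase without a poly(A) tail in most cases. Hist1h2ap ran from 0 through a median of 370 to 2977 TPM, and Hist2h4 from 0 through 578 to 2429 TPM. Histone copies are nearly identical in sequence, and how reads were divided between them is uncertain. The same holds for Tpt1 and Tpt1p, a growth-related gene and a near-copy, which both stood among the 20. Tpt1 had an excess SD of 1.54 in the knockout and 1.38 in 2i, against 0.07 and 0.01 on the serum plates. The calcium-binding protein gene S100a1 (1.54) and the secreted phospholipase gene Pla2g1b (1.66) were there as well, with the short or unnamed transcripts AB352479, Mir682, AK195428, Gm6644, AK186650 and AI413582. The first gene by excess SD, AB352479, was as widely spread on the serum plates, at 2.50 in the knockout against 2.52 and 2.82.

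At the other end, the least spread genes for their level were Sez6, Rps15a, Ssh2, Grk4, Tbc1d24, F830016B08Rik, Anapc11 and Eif5b. Rps15a, a protein of the small ribosomal subunit, held between 13 and 53.2 TPM around a median of 27.95, with the lowest SD of these 8. All 8 were detected in every knockout cell.

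**Figure D1:**
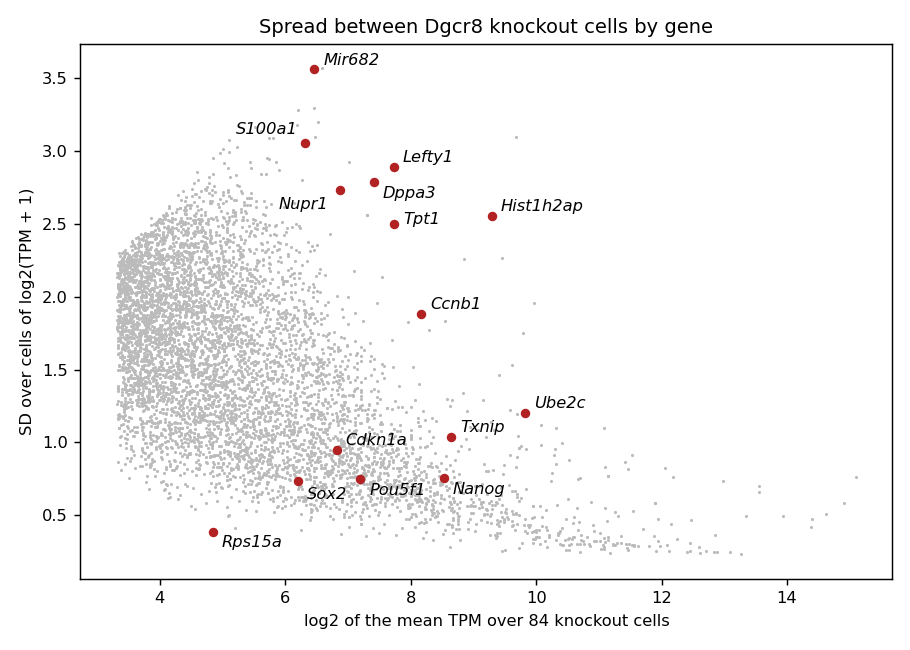
Each point is 1 of 6157 genes, with the log2 of its mean TPM over 84 knockout cells on the x axis and the SD over cells of log2(TPM + 1) on the y axis, and named genes in red. Lefty1, Dppa3, Nupr1, Tpt1 and Hist1h2ap lie above genes of like level, Ccnb1 and Ube2c less so, and Rps15a lies below.

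Many genes were listed at 0 in part of the plate. Between 25% and 75% of knockout cells gave 0 for 5017 genes. Among these the highest medians in the remaining cells belonged to Mir682 (48 cells, 115 TPM), M13188 (26 cells, 104 TPM), S100a1 (61 cells, 94.1 TPM), Pla2g1b (52 cells, 90.6 TPM) and Hist2h2ac (63 cells, 85.8 TPM). A 0 in this unit can be a failed capture as well as an absent transcript, so these counts are of listed values.

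The genes given as markers of the knockout state did not share one kind of spread. Txnip, a thioredoxin-binding protein that restrains glucose uptake, was above TPM 1 in all 84 cells, from 12.9 through a median of 362 to 1165 TPM. The serum medians were 8.75 and 10.8 TPM and the highest serum cells 100.7 and 40.6 TPM. Cdkn1a, which encodes the p21 inhibitor of cyclin-dependent kinases, was also detected in every knockout cell, from 14.6 through 100.3 to 472 TPM. Its serum medians were 0.827 and 1.30 TPM and its 2i median was 54.4. Sox2, a core pluripotency factor, ran from 6 through 67.9 to 172 TPM, against medians of 6.64 and 7.37 in serum and 40.3 in 2i. All 3 overlapped the serum plates in their lowest cells. Lefty1 was thus the only 1 of the 4 markers listed at 0 in any knockout cell. The excess SD of Cdkn1a was -0.03 and that of Sox2 -0.40, near or under that of genes of like level.

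**Figure D2:**
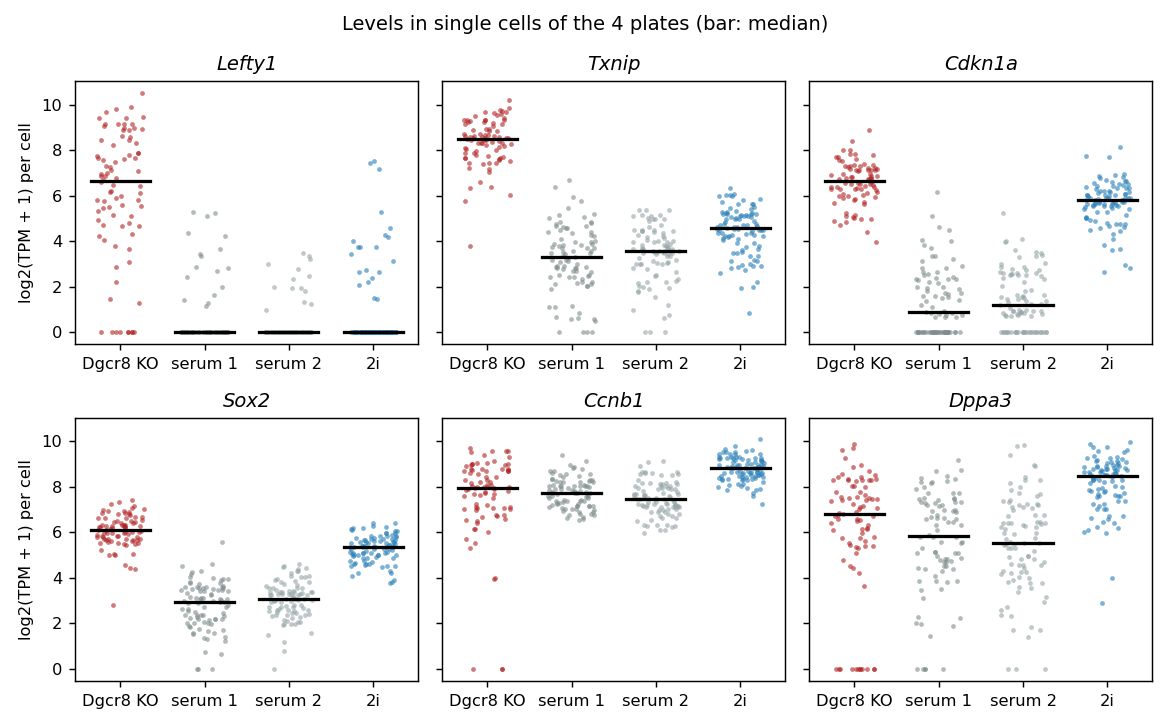
Each point is a cell, by plate on the x axis and log2(TPM + 1) on the y axis, and the bar is the median of the plate. Lefty1 and Dppa3 are spread from 0 to the top of their range in knockout cells, whereas Txnip, Cdkn1a and Sox2 are listed above 0 in all 84.

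The 2 bulk knockout libraries stood beside the mean of the knockout cells as follows. Lefty1 averaged 213 TPM over cells and gave 121 and 180 TPM in bulk. Sox2 averaged 73.7 TPM and gave 74.2 and 65.9. Cdkn1a averaged 113 TPM and gave 57.5 and 56.5. Txnip and Pou5f1 were further apart, with cell means of 399 and 147 TPM against 1688 and 1751 TPM and 1455 and 1703 TPM in bulk. The tables were normalised separately, so only genes within a table are comparable on level.

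Whether the spread of a gene differed from the serum plates was tested with limma on the excess SD of the 4 plates, with 1 mean each for serum, 2i and knockout. More and less variable below refer to this excess SD, the spread for a gene's level, and not to the SD itself. The 2 serum plates leave 1 residual degree of freedom, and the single knockout plate is assumed to vary like them. Nothing says that the serum plates are separate cultures, so the p-values reflect variation from plate to plate, which may be technical. Over 11087 genes averaging TPM 1 or more, 288 genes (2.6% of those tested) were more variable in the knockout and 149 (1.34%) were less variable at a Benjamini-Hochberg adjusted p under 0.05. Of these 437 genes, 336 were listed at 0 in every serum cell, where both serum plates give the same value and no error can be estimated. On simulated data this fit recovered 0% of genes with an added SD of 0.5 or of 1 and made 0 false calls. Cells were simulated as normal on the log2 scale, and every plate received the plate noise of the serum pair. Such data cannot measure false calls that come from an effect of the single knockout plate.

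Under that test none of the 4 markers was called. The knockout minus serum difference in excess SD was 1.43 for Lefty1 (SE 0.145, adjusted p = 0.081 by limma), 0.14 for Txnip (adjusted p = 0.195 by limma), -0.26 for Cdkn1a (adjusted p = 0.144 by limma) and -0.17 for Sox2 (adjusted p = 0.163 by limma). Nupr1 differed by 1.02 (SE 0.0812, adjusted p = 0.0726 by limma). Among called genes that serum cells did hold, the differences were 1.503 for Tpt1 (SE 0.051, adjusted p = 0.038 by limma), 0.99 for Timm10, 0.97 for Snrnp25, 0.93 for Znhit3 and 0.91 for Elof1. Timm10 is a chaperone of the mitochondrial intermembrane space, Snrnp25 a protein of the minor spliceosome and Elof1 an elongation factor of RNA polymerase II. Less variable genes included Terf2ip, a telomere-binding protein also known as Rap1, at -0.93, and Zfp534, a KRAB zinc finger protein, at -0.95.

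The called genes that no serum cell held were Tspo2, Thrsp, Srgn, Gm12942 and AK217941 among the 10 largest. Thrsp, a regulator of lipid synthesis, averaged 26.7 TPM over knockout cells with a median of 2.63. Srgn, a secretory granule proteoglycan, averaged 35.8 TPM with a median of 21.6 and a highest cell of 236 TPM. For these genes the comparison amounts to presence in the knockout against absence in serum. Of the 288 genes called more variable 238 were of this kind, and so were 98 of the 149 called less variable. In those 98 the SD in serum is 0, so the call says only that the knockout SD lay under that of genes of like level, not that the cells varied less than serum cells.

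A second gene set, chosen after this was seen, was limited to the 2984 genes averaging TPM 10 or more on every plate. There 361 genes (12.1% of those tested) were more variable and 392 (13.1%) less variable in the knockout. On data simulated in the same way this fit recovered 77% of genes with an added SD of 0.5 and 99% of those with 1. It made 24 false calls for 200 changed genes, so in that simulation its share of false calls was above the 0.05 that the adjustment aims at. False calls from an effect of the knockout plate were not simulated. The lists below are described with it, beside the median difference of all 2984 genes, -0.0065. None of the members of the G2/M, G1/S or naive pluripotency lists was called by the fit on 11087 genes, in which Ccnb1 had an adjusted p of 0.0766 by limma.

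Genes of mitosis and of the G2/M transition stood out. Of 29 measured members, 12 were more variable between knockout cells than between serum cells, 1 was less variable and 16 did not pass. The median difference in excess SD was 0.28, and 25 of 29 members lay above both serum plates, against 42.4% of all 2984 genes. Ccnb1, the mitotic cyclin B1, differed by 1.01 (SE 0.0827, adjusted p = 0.0123 by limma). It was listed at 0 in 3 knockout cells, had a median of 247 TPM and reached 826 TPM, while its lowest serum cells held 93.6 and 62 TPM. Its median stood beside serum medians of 213 and 176 TPM. The lower quartile was 129.53 TPM, between the 145 and 128 TPM of the serum plates. The upper quartile was 422 TPM, against 296 and 258 TPM. The knockout distribution thus lay above both serum plates at the upper quartile, and below both only among its lowest cells. The 3 cells at 0, in wells B2, E4 and G12, held 8815, 8138 and 7658 detected genes, beside a plate median of 9318.

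The other called members included the mitotic kinases Aurka (difference 0.69) and Aurkb (0.54), the chromosomal passenger protein Birc5 (0.66), the kinesin Kif20a (0.62), the Cdk subunit Cks2 (0.61), Cdk1 itself (0.49) and the ubiquitin-conjugating enzyme of the anaphase-promoting complex, Ube2c (0.54). The single member that went the other way was Pttg1, the securin that holds sister chromatids together, at -0.61. Without the 8 knockout cells that had the fewest detected genes, 6 of the 29 members were more variable and 1 less variable, and the median difference was 0.15. Of all 2984 genes 313 were more variable in that setting, and their median difference was -0.003. Ccnb1 correlated with the number of genes detected at 0.23 over the 84 cells, and the part of capture in the remaining spread was not tested.

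G2/M genes also moved together from cell to cell. Over the 36 members detected in at least 20% of cells on every plate, the mean Spearman correlation of a pair was 0.39 over the 84 knockout cells. It was 0.25 and 0.19 on the serum plates and 0.21 in 2i. The mean over 5893 genes selected the same way was 0.02 in the knockout, 0.07 and 0.05 in serum and 0.006 in 2i. With the number of genes detected held constant, the means for the list were 0.39, 0.20, 0.16 and 0.20, in the same order. Without the 8 cells the knockout value was 0.35. The mean level of the 36 genes ran from 2.72 through a median of 6.19 to 7.27 on the log2(TPM + 1) scale, with an SD of 0.91 over knockout cells against 0.45 and 0.37 on the serum plates and 0.37 in 2i. Without the 8 cells this SD was 0.73.

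The plot of list co-variation sets these values beside those of other lists. These are descriptions over the cells of single plates and carry no test.

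**Figure D3:**
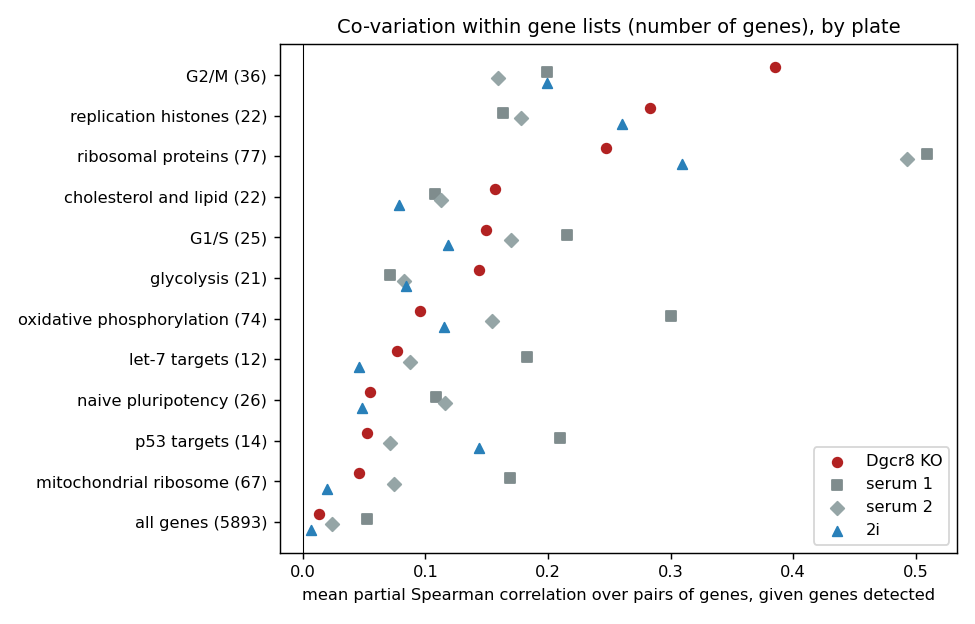
For each gene list (number of genes in brackets), the x axis gives the mean over pairs of genes of the Spearman correlation between cells, given genes detected, and each symbol is 1 plate. The knockout plate (circles) is highest for G2/M genes, at 0.39, and lower than both serum plates for ribosomal proteins, at 0.25.

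Single genes showed the same. The closest partner of Ccnb1 over the 84 cells was Cenpf, a kinetochore protein, at a Spearman correlation of 0.80, followed by Ube2c at 0.77, the importin Kpna2 at 0.73, the tubulin Tubb2c at 0.73 and the spindle protein Nusap1 at 0.71. Cenpf ran from 3.47 through a median of 36.5 to 125 TPM and Ube2c from 27 through 846 to 3728 TPM. The median gene among 6157 had a best partner at 0.43, and only 0.0333% of all pairs reached 0.5. The lowest correlations of Ccnb1 were with the deubiquitinase Usp37 at -0.40, 9130230L23Rik at -0.40 and Snx2 at -0.39, close to the median lowest partner of all genes at -0.39. Mcm6, a subunit of the replicative helicase looked up after its value was seen, stood at -0.37.

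The promoters of Ccnb1 and its 3 closest partners are printed because their levels followed each other from cell to cell. The best partner of Ccnb1 stood at the 97.7th percentile of all genes. They cover 250 bases before to 50 bases after the start, from RefSeq. Capitals mark CCAAT or its reverse complement ATTGG, and TTTGAA or its reverse complement TTCAAA, searched on both strands, with overlapping matches in CCAATTGG. Both motifs are known from promoters of mitotic genes.

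Ccnb1, GRCm38.p6 chr13:100786437-100786736, minus strand: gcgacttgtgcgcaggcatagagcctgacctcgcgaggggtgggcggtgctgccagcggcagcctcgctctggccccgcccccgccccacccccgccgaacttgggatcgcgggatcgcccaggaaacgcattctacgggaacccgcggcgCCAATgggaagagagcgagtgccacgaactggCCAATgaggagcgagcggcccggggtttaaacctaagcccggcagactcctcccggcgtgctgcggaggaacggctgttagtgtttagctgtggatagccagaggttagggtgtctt
Cenpf, GRCm38.p6 chr1:189688037-189688336, minus strand: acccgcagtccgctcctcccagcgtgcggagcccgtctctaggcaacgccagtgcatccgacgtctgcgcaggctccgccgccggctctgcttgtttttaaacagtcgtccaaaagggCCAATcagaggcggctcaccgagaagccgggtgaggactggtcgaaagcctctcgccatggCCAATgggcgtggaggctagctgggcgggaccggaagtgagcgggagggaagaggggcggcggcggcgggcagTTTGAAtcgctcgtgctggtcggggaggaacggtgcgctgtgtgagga
Ube2c, GRCm38.p6 chr2:164769679-164769978, plus strand: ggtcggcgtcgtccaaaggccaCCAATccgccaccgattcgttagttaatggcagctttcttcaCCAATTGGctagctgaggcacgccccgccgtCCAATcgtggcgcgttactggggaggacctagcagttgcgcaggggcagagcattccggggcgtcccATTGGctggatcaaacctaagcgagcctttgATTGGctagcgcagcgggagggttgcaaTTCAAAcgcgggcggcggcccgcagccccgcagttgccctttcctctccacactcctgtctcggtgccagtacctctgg
Kpna2, GRCm38.p6 chr11:106999476-106999775, minus strand: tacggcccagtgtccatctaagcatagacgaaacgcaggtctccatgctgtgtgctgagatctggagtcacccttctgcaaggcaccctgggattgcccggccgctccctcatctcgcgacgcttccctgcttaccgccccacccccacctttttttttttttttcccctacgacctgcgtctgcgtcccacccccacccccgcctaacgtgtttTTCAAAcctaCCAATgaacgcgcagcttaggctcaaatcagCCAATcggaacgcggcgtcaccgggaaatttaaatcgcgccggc

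Of 34 such promoters of 32 genes in the G2/M list, 29 (85.3%) held CCAAT and 24 (70.6%) held TTTGAA. Among all 32851 promoters of 300 bases the shares were 37.4% and 17.9%. At least 2 matches of CCAAT were found in 58.8% and 11.7%. Of the promoters printed, Ccnb1 held 0 matches of TTTGAA and the other 3 held 1 each, and Ube2c held 6 of CCAAT. A match describes letters in a window and is not a binding site.

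Replication histones varied largely apart from G2/M genes. The mean correlation of a pair was 0.29 over 22 genes in the knockout, 0.16 and 0.19 in serum and 0.27 in 2i. Their mean level ran from 0.51 through 3.80 to 6.06 on the log2(TPM + 1) scale. Of 45 measured histone genes, 42 had an excess SD above 0 in the knockout, where the median of all 11087 genes was 0. Histones were widely spread for their level on every plate. Over the 10 members of the second gene set the median excess SD was 1.3803 in the knockout, 1.5196 and 1.4985 in serum and 1.5469 in 2i. Against the serum plates, 1 of 10 members of the second gene set was more variable, Hist1h4d at 0.32 (adjusted p = 0.0334 by limma). Less variable were 2 members, Hist1h2ag at -1.25 and Hist1h2an at -0.90. With the running median taken over the 11087 genes, the gap for Hist1h2ag was smaller. Its excess SD was then 0.89 in the knockout and 1.54 and 1.87 in serum. The mean level of histones correlated with that of G2/M genes at 0.09 over the 84 cells, and with that of 25 G1/S genes at 0.29.

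**Figure D4:**
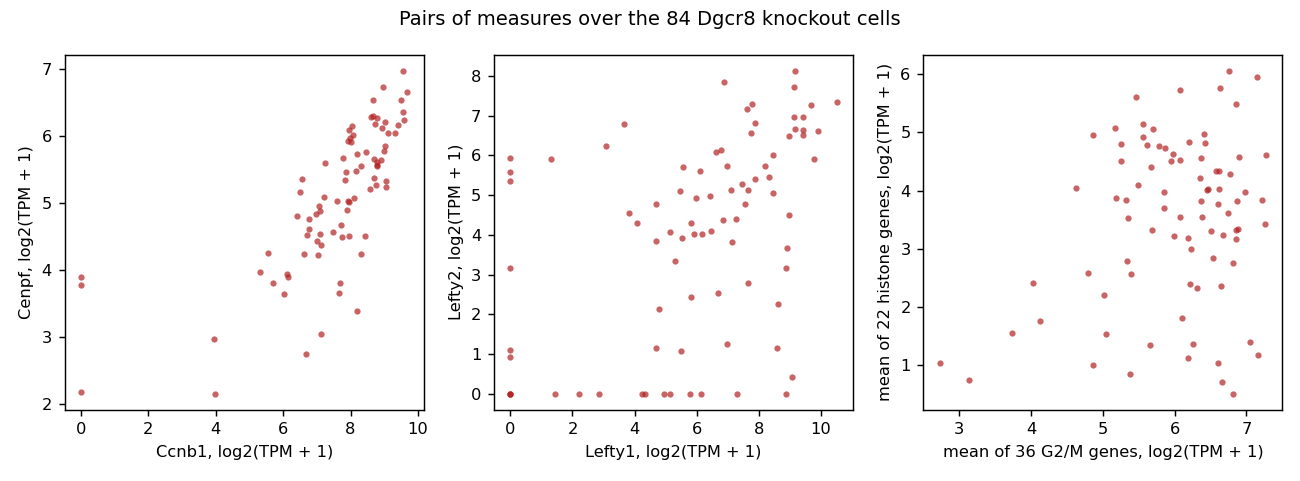
Each point is 1 of 84 knockout cells, on the log2(TPM + 1) scale: Cenpf against Ccnb1, Lefty2 against Lefty1, and the mean of 22 histone genes against the mean of 36 G2/M genes. The first pair rises along a line, the second is looser with many cells at 0, and the third shows no clear order.

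Genes of G1/S and DNA replication were less ordered. Of 23 members, 5 were more variable than in serum, 0 less and 18 did not pass, with a median difference of 0.06. Cdc45, a helicase cofactor, had the largest difference at 0.73 (adjusted p = 0.0274 by limma) and was listed at 0 in 15 cells. Mcm6 (0.43) and Mcm5 (0.29) of the helicase were also called. The share of all 2984 genes called more variable was 12.1%. Without the 8 cells the count was 2 of 23, where 313 of all 2984 genes were more variable, so G1/S genes did not stand out there. The mean correlation of a pair was 0.15 in the knockout, against 0.24 and 0.21 on the serum plates.

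Among naive pluripotency genes, of 17 members, 4 were less variable than in serum, 0 more and 13 did not pass, and 14 of 17 lay below both serum plates, against 44.9% of all 2984 genes. The median difference was -0.22. Of all 2984 genes 13.1% were less variable. The median excess SD of the 17 was 0.09 in the knockout and 0.005 in 2i, against 0.24 and 0.25 in serum. The member Dppa3 lay the other way, at an excess SD of 1.66 against 1.45 and 1.41. The 4 called members were Nanog (-0.30), Zfp42 (-0.35), the Nodal co-receptor Tdgf1 (-0.40) and the LIF receptor Lifr (-0.49). Without the 8 cells the counts were 4 less and 1 more variable. Their mean correlation over pairs was 0.05, near the 0.02 of all genes. In serum it was 0.11 and 0.12, where the means of all genes were also higher, at 0.07 and 0.05. In 2i it was also 0.05, where the mean of all genes was 0.006. Sox2 went with the mean level of the other 25 members at a correlation of 0.34, and its closest partners were Hnrnpa0 (0.41), Shfm1 (0.40) and Dppa4 (0.40), all under the median best partner of 0.43.

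Members of the Nodal and BMP pathways covered the range from wide to narrow spread. Lefty2, the second Nodal inhibitor, ran from 0 in 14 cells through a median of 21.9 to 279 TPM, and its correlation with Lefty1 was 0.50. Both are known targets of Nodal signalling. The ligand Nodal, with a median of 7.59 TPM, correlated with Lefty1 at -0.05. The closest partner of Lefty1 was Gnpda2, an enzyme of glucosamine metabolism, at 0.51, with Lefty2, Enpp3 (0.43) and the R-spondin receptor Lgr4 (0.40) also among its highest. A best partner of 0.51 stood at the 87.5th percentile of all genes. The values hardly moved with genes detected held constant, at 0.50 for both Gnpda2 and Lefty2.

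Id1 and Id3, inhibitors of differentiation induced by BMP, were listed at 0 in 59 and 57 knockout cells, and Id2 in 36. Id1 and Id3 did not enter the second gene set, and their correlations with Lefty1 were 0.15 and -0.15. In the second gene set Id2 was less variable than in serum by -1.31 (adjusted p = 0.0123 by limma), with a mean of 15.7 TPM against 100.2 and 76.6 TPM. Tdgf1, which belongs to this list as well, was the other of 2 called among 3 members.

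Targets of p53 were split by cell only weakly. The mean correlation over 14 genes was 0.05 in the knockout, against 0.24 and 0.16 in serum and 0.14 in 2i. With genes detected held constant, the means were 0.05, 0.21, 0.07 and 0.14, in the same order. Cdkn1a correlated with the mean level of the other 13 at 0.37, with Trp53, which encodes p53, at 0.36 and with Btg2, an antiproliferative target of p53, at 0.36. The p53 targets Mdm2 and Ccng1 stood lower, at 0.18 and 0.16. Its closest partners were AK163075 and the thiamine transporter Slc19a2, both at 0.41. These values lie under the median best partner of all genes. Cdkn1a correlated with the mean level of G2/M genes at 0.08. Txnip went with the mean of G1/S genes at -0.22 and with its highest partner Vps24 at 0.40. Its lowest correlations were larger in size, with Polr3f at -0.46, Iscu at -0.42 and Dtnb at -0.40. The median lowest partner of all genes stood at -0.39. Without the 8 cells with the fewest genes these 3 correlations of Txnip were -0.51, -0.34 and -0.35. The 4 markers were nearly independent of each other, with correlations between -0.04 and 0.16.

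Known targets of the seed printed above did not form one group. Over 7 of them the mean correlation of a pair was 0.04, against 0.01 and 0.00 in serum. Their excess SD was, for example, 1.76 for Lefty1, 0.91 for Lefty2 and -0.49 for Mink1. Only 1 of the 15 measured targets, Arid4b, entered the second gene set, and it was not called. In the fit on 11087 genes 2 of the 15 were called less variable, where 1.34% of all genes were. They were the kinase gene Mink1 and Rbl2, which encodes the retinoblastoma-related protein p130. Both were listed at 0 in every serum cell, so their serum SD is 0. The calls therefore do not say that knockout cells varied less than serum cells.

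Among genes of the microRNA pathway, Tarbp2, the Dicer partner, was more variable in the knockout by 0.84 (SE 0.0928, adjusted p = 0.0128 by limma), from 0 through a median of 25.2 to 267 TPM. Tnrc6c, a partner of Argonaute, was less variable for its level by -0.82, and Dgcr8 by -0.45. For Dgcr8 only the excess SD was lower. Its SD of log2(TPM + 1) was 1.44 over knockout cells, against 0.97 and 0.93 on the serum plates, where its level was higher. Their mean correlation over 14 genes was 0.02.

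Housekeeping programmes behaved in 2 ways. Their counts, and those of the lists after them, stand beside 12.1% more and 13.1% less variable among all 2984 genes. Ribosomal protein genes changed little in spread, with 0 more variable and 1 less variable, Rps15a, of 77, but moved together less: the mean correlation was 0.25 in the knockout, 0.57 and 0.53 in serum and 0.31 in 2i. Genes of the mitochondrial ribosome were more variable in 24 of 61 members and less in 2, with a median difference of 0.15. Mrpl55 (0.79) and Mrpl20 (0.66) were the widest and Mrpl19 (-0.41) the narrowest. With a pseudocount of 10 these counts were 13 and 4. Their mean correlation was 0.05, near that of all genes. Oxidative phosphorylation subunits had 3 of 72 more variable and 0 less.

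Sterol and lipid synthesis genes were less variable in 4 of 9 members, among them the sterol regulator Srebf2 (-0.60), Hmgcs1 (-0.56) and Sc4mol (-0.47), and more variable in 0. The median excess SD of the 9 members was -0.13 in the knockout and -0.15 in 2i, against 0.15 and 0.12 in serum. The low spread was thus not particular to the knockout plate. The mean correlation over 22 sterol and lipid genes was 0.16, against 0.13 and 0.11 in serum. Glycolysis genes stood at 0.14, against 0.13 and 0.11, with 1 of 15 more and 1 less variable.

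Counts of further lists stand beside 12.1% more and 13.1% less variable among all 2984 genes. Stress and redox genes had 1 of 9 more and 1 less variable, apoptosis genes 1 of 6 more and 0 less, let-7 targets 0 of 5 either way and Polycomb subunits 0 of 7 either way.

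The main axes of variation were small. Over the 500 genes with the highest excess SD, the first principal component held 4.08% of the variance and the second 3.27%. The first was led by histones, Hist1h2ae, Hist1h2ak and Hist2h2ac, and correlated with genes detected at 0.63, with Srgn, Thrsp, Pla2g1b and the chaperone Clu at its far end. The second had histones at one end and Nupr1, the G-protein subunit Gngt2, the aquaporin Aqp3 and the keratin Krt17 at the other. Its correlation with genes detected was -0.30. Histone level correlated with Nupr1 at -0.26.

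Chromatin was measured on bulk knockout cells, as read counts in 1 window of 1000 bases per gene (mm9), with 1 library a mark. In the 1848 genes with the highest excess SD the median H3K4me3 count, a mark of active promoters, was 344, and it was 513 in the 1848 with the lowest. H3K27ac, a mark of active promoters and enhancers, had medians of 207 and 375 and RNA polymerase II 84 and 112. H3K27me3, the Polycomb mark, had 14 and 12, and the input 23 and 25. Mean level was alike, with medians of 30.9 and 27.3 TPM. Lefty1 (chr1:182864669-182865669) held 237 counts of H3K4me3 and 38 of H3K27me3, beside 36 of input. Ccnb1 (chr13:101555941-101556941) held 1082 and 13. Dppa3 (chr6:122575941-122576941) held 39 and 34, with 12 of input.

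One cell stood apart from the other 83. In the cell of well F7 Gm4340 reached 39158 TPM, while the highest of the other knockout cells held 6.58. Gm2022 reached 13901 TPM there and Gm4301 12198 TPM, and these 3 together made 6.53% of the cell's transcripts. The same cell held the deubiquitinase gene Dub1 at 831 TPM and the translation initiation factor gene Eif1ax at 5954 TPM, against highest values of 2.13 and 447 TPM elsewhere. In all, 16 genes at TPM 100 or more were over 4 times above every other knockout cell. Gm4340 also carries the name Gm4303 with identical values, and reads may be shared between near-identical copies of these genes.

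In that cell Pou5f1 was the lowest of the plate at 20.2 TPM, Sox2 and Esrrb were the third lowest at 20.5 and 6.12 TPM, and Dppa3 was the highest at 952 TPM. Nanog, at 663 TPM, was in the upper part of the plate. It held 7815 detected genes, the third fewest. Gm4340 is 1 of 5 markers measured for a two-cell-like state. All 5 Zscan4 names of the table were listed at 0 in every knockout cell and Zfp352 was 0 in this cell, so the cell carried 1 marker and is given no type. A gene held to at least 90% by a single cell at TPM 100 or more occurred 4 times in the knockout, all in this cell (Dub1, Gm2022, Gm4301 and Gm4340), 3 times in 3 cells on the first serum plate, 0 times on the second and 2 times in 2 cells in 2i. The bulk knockout libraries held 20.8 and 17.9 TPM of Gm4340, against 1.04 and 0.224 TPM in bulk serum. The cell and its genes were chosen after their values were seen.

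**Figure D5:**
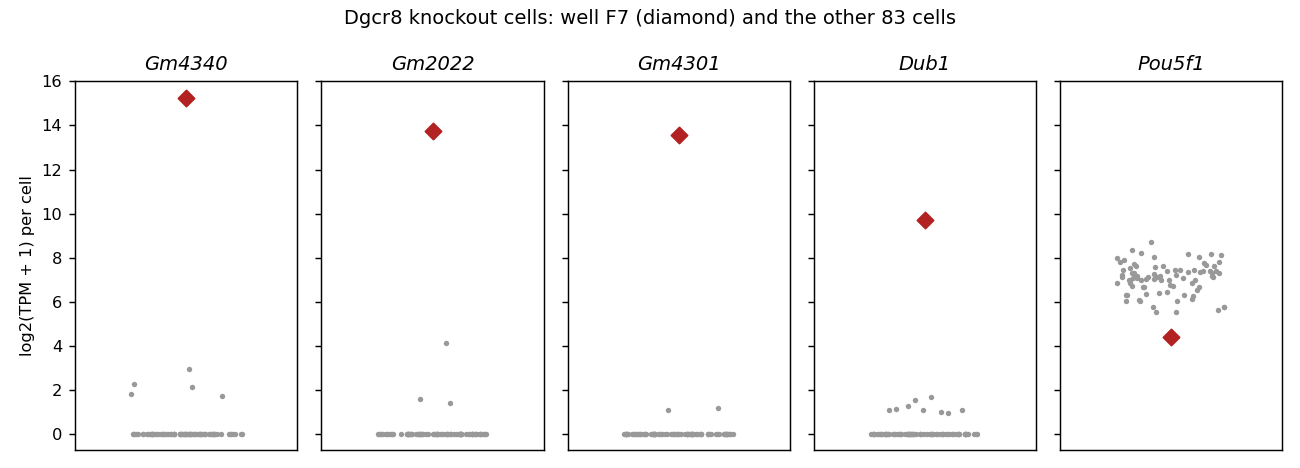
Each point is a knockout cell on the log2(TPM + 1) scale, with the cell of well F7 as a diamond. It lies far above the other 83 for Gm4340, Gm2022, Gm4301 and Dub1, and below them for Pou5f1.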

How the data were processed

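Single-cell and bulk RNA values were deposited by the authors as the natural log of TPM + 1, and ChIP-seq as raw read counts per window of 1000 bases. Bowtie, RSEM and mm9 are named, without versions, per the submitters' processing notes. The sources used here name no annotation or filter. The natural log was reversed to TPM. Of 22443 names, 51 that had become dates were left out, and 1626 names with values identical to another were merged. Samples were grouped by the labels, single cells by plate.

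Excess SD was fitted with limma 3.58.1 in R 4.3.3, trended on level, and p-values were adjusted by Benjamini-Hochberg over all genes. The fit was tested on simulated data in which every plate varied like the serum plates. Correlations are Spearman over 84 cells, also partial for genes detected. numpy and pandas did the rest. Named genes are the 20 highest and 8 lowest by excess SD, 10 genes on in part of the cells, 5 highest and 3 lowest partners of Lefty1, Txnip, Cdkn1a, Sox2 and Ccnb1, 2 highest and 1 lowest of each list, the 10 largest called differences each way, 8 genes at each end of 2 components, and markers. The members and lists were chosen with earlier results of these data known. Genes outside this rule (the Nodal, Btg2 and Mcm6 values, further members of the G2/M, G1/S and other lists, and the genes of well F7) were chosen after their values were seen.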

Additional observations from a re-analysis of the deposited data

How the results depend on the processing

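Counts of genes that differ in spread from serum depended on the gene set. More and less variable genes numbered 288 and 149 as reported, 795 and 798 at a mean TPM of at least 10, and 1680 and 1702 among genes above 0 on every plate. A pseudocount of 10 gave 249 and 89, and leaving out the 2i plate 214 and 60. At a mean TPM of at least 10 on every plate, a choice made after seeing the data, less variable genes numbered 392, and then 469 with a pseudocount of 10, 421 with residuals on genes detected, 374 with a wider running median, 374 without the 2i plate, 336 without the 8 cells with the fewest genes and 392 without the cell of well F7. More variable genes numbered between 313 and 409 there. Leaving out a serum plate gives no residual degrees of freedom and so a value with no test. The G2/M correlation difference of 0.18 from serum was then 0.15 to 0.21. The ribosomal protein median excess SD, which differed from serum by less than 0.01, was -0.0053 without the first serum plate and 0.0197 without the second. For the 20 genes highest in excess SD, between 17 and 19 were shared with each alternative. Their excess SDs were lower with a pseudocount of 10, by over 1.5 times for most. Pearson in place of Spearman lowered Ccnb1 with Ube2c to 0.66 and with Kpna2 to 0.58. The cause of these changes was not tested. No paired analysis was possible because the knockout has 1 plate and the well numbers do not pair cells.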
